A study of Mus musculus with 12 samples.

Results

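Chromatin occupancy of the acetyltransferase MOF was examined at 177 nuclear genes that encode the mitochondrial respiratory chain, ATP synthase, mitochondrial ribosome and mitochondrial tRNA synthetases. These were the genes whose symbols matched a fixed naming pattern (Nduf, Sdh, Uqcr, Cox4 to Cox8, Atp5, Mrpl, Mrps and symbols ending in ars2) among 21887 protein-coding genes of the RefSeq annotation on chromosomes 1 to 19, X and Y. They comprised 37 genes of complex I, 4 of complex II, 8 of complex III, 16 of complex IV, 17 of ATP synthase, 49 of the large and 29 of the small mitoribosomal subunit, and 17 tRNA synthetase genes. Among the genes of the respiratory chain that the pattern missed were Cox4i1, Cox4i2, Ndufab1, Cyc1 and Cycs, and none of these 5 had a peak in any list.

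Chromatin immunoprecipitation with sequencing (ChIP-seq) for MOF had been done in haematopoietic stem cells (HSC; LSK, CD34- and Flt3-; 15000 cells) and in megakaryocyte-erythroid progenitors (MEP; Lin-, Sca-1-, cKit+, CD34-, IL7r- and CD16/32-; 30000 cells), both sorted from C57BL/6 bone marrow of wild-type and of Mof -/+ animals. GATA1 had been mapped in HPC7, a wild-type mouse haematopoietic progenitor line at passage 3 that grows with stem cell factor. Each of the 5 peak lists came from 1 library, the marrow came from pooled bones, and the sources used here do not give the number or age of the animals. A peak list holds no expression values, so the identity of the sorted cells could not be checked against marker genes, and HPC7 is a single line.

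The respiratory chain passes electrons from complex I or complex II through complex III to oxygen at complex IV, and ATP synthase, also called complex V, uses the resulting proton gradient to make ATP. Most of its subunits are nuclear-encoded, while the rest come from the mitochondrial genome and are made by a dedicated ribosome, which needs its own set of tRNA synthetases. Stem cells of the marrow are known to lean on glycolysis and to raise oxidative metabolism on differentiation. MOF acetylates histone H4 at lysine 16 and has also been described inside mitochondria, where nuclear peak lists cannot follow it.

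The lists differed in length and layout, so the main member counts are read against the same count over all protein-coding genes. There were 1876 peaks in wild-type HSC, 898 in wild-type MEP, 338 in heterozygous HSC, 64 in heterozygous MEP and 477 GATA1 intervals. Sequencing depth is unknown, and a longer list can cover more genes. The score of a MOF peak is the −log10 value that the authors deposited for it, read as a −log10 q-value, with a median of 5.27 in the wild-type HSC list and of 5.61 in that of wild-type MEP. A gene was counted when the position of a peak, its summit, lay within 5 kb of the annotated start or end of the gene. With 1 library per list no difference has a replicate check, no test was made, and the 95% Wilson intervals cover counting error only.

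The promoters below are shown because MOF summits of a wild-type library fell into them. The sequences are the 250 bases before the RefSeq start nearest to the summit (GRCm38.p6, the build called mm10), written 5′ to 3′ along the gene. Capitals mark matches to 7 short motifs of factors that act at promoters, searched on both strands: GCATGCGC for NRF1, CCGGAAG for ETS factors such as GABPA, ATGGCGG for YY1, CCAAT for NF-Y, GGGCGG for SP and KLF factors, CACGTG for MYC-type E-box factors and AGATAA for GATA factors.
Ndufs7 (chr10:80249199-80249448, plus strand): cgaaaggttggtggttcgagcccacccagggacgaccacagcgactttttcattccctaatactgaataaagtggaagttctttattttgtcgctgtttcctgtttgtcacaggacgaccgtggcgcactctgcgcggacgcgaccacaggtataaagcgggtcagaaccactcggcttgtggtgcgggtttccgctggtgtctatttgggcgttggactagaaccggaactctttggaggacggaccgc
Ndufa7 (chr17:33824322-33824571, plus strand): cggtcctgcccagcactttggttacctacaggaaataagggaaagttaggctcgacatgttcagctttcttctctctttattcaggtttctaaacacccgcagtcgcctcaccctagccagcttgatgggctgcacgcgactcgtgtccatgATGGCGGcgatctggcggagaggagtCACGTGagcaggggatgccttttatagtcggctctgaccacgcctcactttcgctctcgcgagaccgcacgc
Cox5a (chr9:57520982-57521231, plus strand): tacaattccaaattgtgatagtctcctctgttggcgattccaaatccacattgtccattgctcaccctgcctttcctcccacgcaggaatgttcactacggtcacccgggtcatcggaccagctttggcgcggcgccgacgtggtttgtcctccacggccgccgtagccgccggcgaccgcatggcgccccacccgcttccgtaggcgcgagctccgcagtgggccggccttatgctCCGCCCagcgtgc
Atp5g2 (chr15:102671048-102671297, minus strand): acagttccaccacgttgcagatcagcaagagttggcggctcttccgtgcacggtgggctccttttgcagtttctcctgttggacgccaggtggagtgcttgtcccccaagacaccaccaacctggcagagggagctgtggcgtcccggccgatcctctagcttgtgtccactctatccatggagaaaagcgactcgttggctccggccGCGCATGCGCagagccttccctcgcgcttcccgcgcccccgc
Mrpl18 (chr17:12916092-12916341, minus strand): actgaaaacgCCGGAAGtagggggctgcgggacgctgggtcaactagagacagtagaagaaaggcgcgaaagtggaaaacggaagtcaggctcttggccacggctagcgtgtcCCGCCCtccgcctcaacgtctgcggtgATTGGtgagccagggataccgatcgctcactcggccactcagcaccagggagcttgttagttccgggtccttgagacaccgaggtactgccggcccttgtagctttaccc
Mrpl34 (chr8:71464676-71464925, plus strand): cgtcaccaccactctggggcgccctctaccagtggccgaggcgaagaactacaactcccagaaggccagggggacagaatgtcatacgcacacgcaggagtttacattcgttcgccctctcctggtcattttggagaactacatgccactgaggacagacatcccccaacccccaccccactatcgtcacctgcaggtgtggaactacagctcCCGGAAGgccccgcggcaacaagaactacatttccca
Mrps18b (chr17:35916441-35916690, minus strand): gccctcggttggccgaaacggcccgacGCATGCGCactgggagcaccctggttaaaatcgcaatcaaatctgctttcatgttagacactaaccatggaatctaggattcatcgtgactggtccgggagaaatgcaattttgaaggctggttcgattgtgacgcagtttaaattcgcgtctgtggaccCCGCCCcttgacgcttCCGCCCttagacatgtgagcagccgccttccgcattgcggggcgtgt
The Ndufs7 and Mrps18b promoters held a summit in both wild-type libraries, Mrpl34 in MEP and the other 4 in HSC. The summits at Ndufa7, Mrpl18 and Mrps18b also lay inside another gene, namely Rps28, Tcp1 and Ppp1r10. Atp5g2 carried a pair of overlapping NRF1 matches that began 42 bases before the start, one on each strand. Mrps18b carried 1 NRF1 match 223 bases before the start and 2 SP/KLF matches closer to it. Ndufa7 had 1 YY1 match and 1 E-box, Mrpl34 had an ETS match 37 bases before the start, and Mrpl18 had 1 ETS, 1 NF-Y and 1 SP/KLF match. Ndufs7 held 0 of the 7 motifs. Its first bases, from 80249199 to 80249232, are instead the end of an annotated tRNA gene, n-TNgtt7 (chromosome 10, 80249159 to 80249232). A match is a description of letters and not a measured binding site.

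MOF peaks lay near 28 of the 177 members in wild-type HSC (15.8%, 95% interval 11.2 to 21.9), where 8.52% of all protein-coding genes had one. In wild-type MEP they lay near 8 of 177 (4.52%, 2.31 to 8.66), beside 3.40% of all genes. The heterozygous HSC list had 2 members (1.13%) beside 0.567% of all genes, the heterozygous MEP list 1 (0.565%) beside 0.0366%, and the GATA1 list 1 (0.565%) beside 0.603%. In all, 34 members had a peak in at least 1 list (19.2%, against 11.1% of all genes), and 143 had none. The share of members thus lay above that of all genes in wild-type HSC, with an interval that did not reach the latter, whereas in wild-type MEP the interval spanned the share of all genes.

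**Figure D1:**
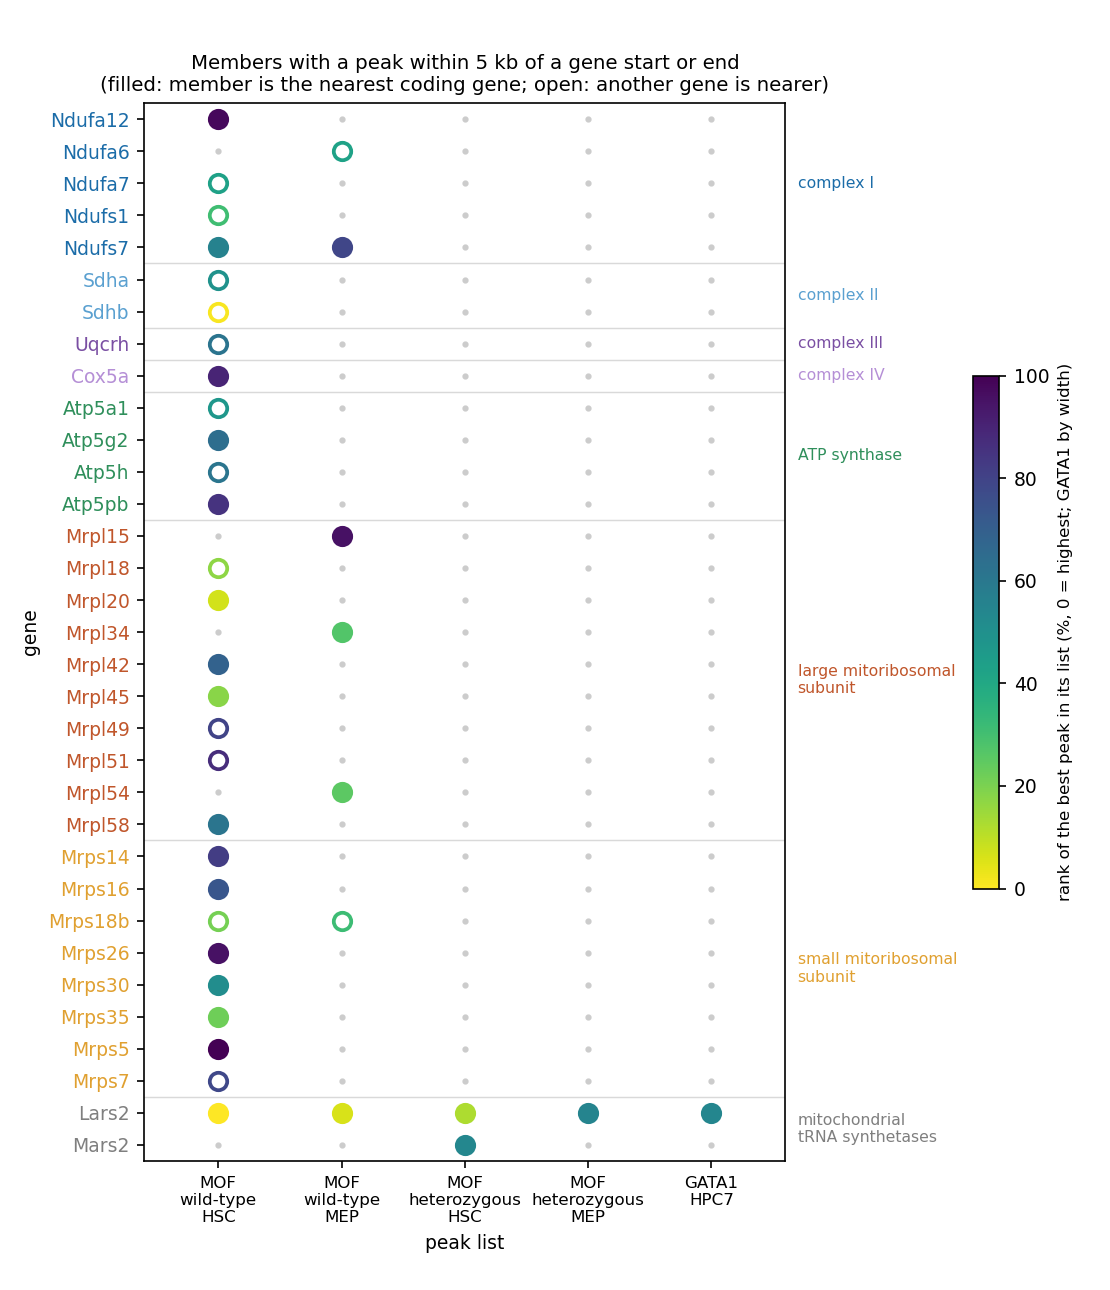
Members with a peak within 5 kb (33 rows, coloured by group) in each of the 5 peak lists (columns). Circle colour gives the rank of the best peak in its list in percent, filled circles mark members that are the nearest protein-coding gene of a peak, and open circles those with another coding gene nearer to every counted peak. Lars2 is the row with a circle in all 5 columns, and most other circles stand in the wild-type HSC column.

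Many of these peaks also stood beside other genes. In wild-type HSC the member was the protein-coding gene nearest to the peak for 16 of the 28 (9.04% of members, against 6.07% of all genes under the same rule), and another gene was nearer for 12. In wild-type MEP the member was nearest for 5 of 8 (2.82%, against 2.31%). Without the peaks that lay nearer to an end of another gene, the HSC interval of 5.64 to 14.2% included the share of all genes.

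The small mitoribosomal subunit held the most members with a peak in HSC, 8 of 29 (27.6%, 14.7 to 45.7). Over all genes it was 8.52%. The proteins of the small subunit read mitochondrial messenger RNA. Mrps18b had 2 peaks, and Mrps35 (score 7.93, rank 412), Mrps30 (5.13, rank 967), Mrps16 (3.84, rank 1371), Mrps14 (3.23), Mrps26 (2.01) and Mrps5 (1.37) had 1 each. Mrps7 was the eighth, but its peak (3.49) lay 4784 bp from the gene and 149 bp from Mif4gd. For 6 of the 8 the member was the nearest coding gene.

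Most summits of this group sat close to an annotated end of the gene. At Mrps35 the summit (chromosome 6, 147042826) lay 98 bp inside the nearer end. At Mrps16 the summit (chromosome 14, 20393632) lay 2 bp and at Mrps30 (chromosome 13, 118387249) 3 bp after the RefSeq start. At Mrps26, where it also fell into the non-coding gene 4930473A02Rik, and at Mrps5 and Mrps14, the summits lay 40, 77 and 79 bp before it. Despite its name, the product of Mrps30 is placed in the large subunit by structural work. The scores of Mrps26 and Mrps5 ranked 1789 and 1872 of 1876, so both stood at the weakest end of the HSC list.

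Of the large mitoribosomal subunit, which forms peptide bonds, 7 of 49 members had a peak in HSC (14.3%, 7.10 to 26.7). Over all genes it was 8.52%. Mrpl20 had the highest score of a peak nearest to a ribosomal member (11.4, rank 131 of 1876; chromosome 4, 155803511), 633 bp after the start. Mrpl45 followed with a summit 30 bp after a RefSeq start (8.48, rank 331; chromosome 11, 97315746). Mrpl42 (4.15) had its peak 4631 bp outside the gene, with a pseudogene, Gm3619, 815 bp away. Mrpl58, whose product releases stalled mitochondrial ribosomes, had its peak (4.58, rank 1145; chromosome 11, 115412886) 212 bp outside the gene.

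For the remaining 3 large-subunit genes another gene was nearer. The Mrpl18 summit (8.55) lay 250 bp before one start of Mrpl18 and 12 bp from Tcp1, which encodes a subunit of the cytosolic chaperonin. The Mrpl51 summit (2.84) lay 544 bp before its start and 70 bp from a start of Ncapd2, a condensin gene, and the Mrpl49 summit (3.34) lay 47 bp from Znhit2. In MEP the large subunit had 3 members, Mrpl54 (8.37, rank 226; chromosome 10, 81266824), Mrpl34 (8.06, rank 244; chromosome 8, 71464848) and Mrpl15 (2.46, rank 857; chromosome 1, 4785960). Their summits lay 102 bp inside Mrpl54, 78 bp before the start of Mrpl34 and 210 bp outside Mrpl15. None of these 3 had a peak in HSC, and none of the 7 HSC members had one in MEP. The interval for 0 of 49 in both lists (upper limit 7.27%) included the 1.52% of all genes. Over all genes 7.00% had a peak in HSC and not in MEP, and 1.88% in MEP and not in HSC. Each of the MEP members was the nearest coding gene to its peak. Apba3, however, lay 111 bp from the Mrpl54 summit, and Abhd8 lay 141 bp from the Mrpl34 summit.

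Among ATP synthase genes 4 of 17 had a peak in HSC (23.5%, 9.56 to 47.3), beside 8.52% of all genes. In MEP 0 of 17 had one (upper limit 18.4%), beside 3.40% of all genes, which the interval included. Atp5g2, which encodes the c subunit of the membrane ring, had a summit 100 bp before its start (4.38, rank 1206; chromosome 15, 102671147). Atp5pb, the b subunit of the peripheral stalk, had one 93 bp before its start (3.00, rank 1600; chromosome 3, 105959356) and 142 bp from Wdr77. Atp5a1, the alpha subunit of the catalytic head, had a summit 265 bp inside the gene (5.39) and 148 bp from Haus1. The fourth, Atp5h of the peripheral stalk, was 2805 bp from the peak at Mrpl58, so that 1 peak counted for both genes.

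Complex I, the entry point for electrons from NADH, had 4 of 37 members in HSC (10.8%, 4.29 to 24.7), near the share of all genes. In MEP it had 2 of 37 (5.41%, 1.5 to 17.7), beside 3.40% of all genes. Ndufs7, a core subunit with an iron-sulfur cluster, was in both and is described below. The accessory subunit gene Ndufa12 had a weak summit 161 bp before its start (1.76, rank 1833; chromosome 10, 94198874). For the accessory subunit gene Ndufa7 the summit (5.80) lay 82 bp before its start. That summit was inside Rps28, a cytosolic ribosomal protein gene, and 72 bp from a start of Rps28. Ndufs1, another iron-sulfur core subunit, was counted for a summit 4386 bp away (6.92) that was 722 bp from Eef1b2, an elongation factor gene. In MEP the peak counted for Ndufa6 (6.17) was 3818 bp away and 275 bp from Smdt1, which encodes a part of the mitochondrial calcium uniporter.

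The other respiratory complexes are small groups with wide intervals. Both complex II genes with a peak in HSC, of 4 in the group (50%, 15 to 85), were counted for distant summits. The summit near Sdhb, the iron-sulfur subunit, had a score of 21.4 (rank 17) but lay 4424 bp from it and 2594 bp from Atp13a2. That near Sdha, the flavoprotein subunit, lay 4889 bp from it and 40 bp from Pdcd6 (5.29). Complex III had 1 of 8 (12.5%, 2.24 to 47.1), Uqcrh, with a summit 524 bp before its start and 325 bp from Lrrc41 (4.58). Complex IV had 1 of 16 (6.25%, 1.11 to 28.3), Cox5a. Its summit (2.54, rank 1687, chromosome 9, 57521158) lay 74 bp before a RefSeq start and 3830 bp from the nearer annotated end of the gene. In MEP complexes II, III and IV had 0 of 4, 0 of 8 and 0 of 16, with upper limits of 49%, 32.4% and 19.4%. Over all genes the shares were 8.52% in HSC and 3.40% in MEP. The intervals of complexes III and IV in HSC, and of complexes II, III and IV in MEP, included these shares.

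**Figure D2:**
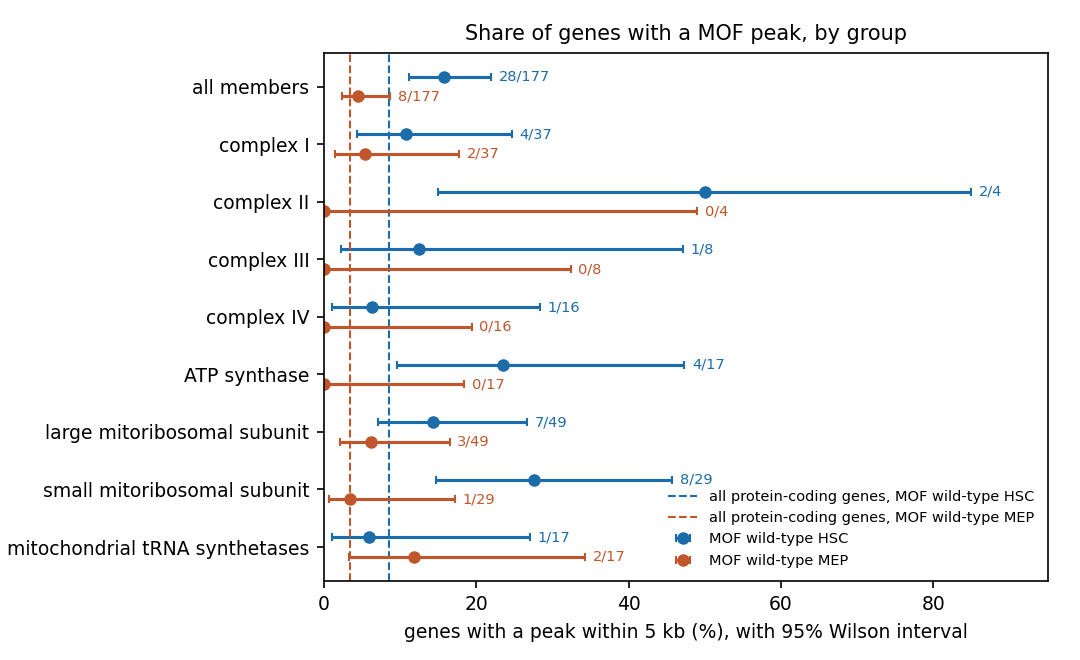
Percent of genes with a MOF peak within 5 kb, with 95% Wilson intervals, for all 177 members and each of the 8 groups in wild-type HSC (blue) and wild-type MEP (orange); dashed lines give the share of all protein-coding genes, and labels give the counts. The widest intervals belong to complex II with 4 genes. Above the HSC line at 8.52% lie the HSC intervals of the small mitoribosomal subunit (14.7 to 45.7%), ATP synthase (9.56 to 47.3%) and complex II (15 to 85%). That of all members does so too. Both complex II genes were counted for distant summits nearer to another gene.

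Taken by class, the respiratory chain with ATP synthase had 12 of 82 members in HSC (14.6%, 8.57 to 23.9) and 2 of 82 in MEP (2.44%, 0.671 to 8.46). The mitochondrial ribosome had 15 of 78 (19.2%, 12.0 to 29.3) and 4 of 78 (5.13%, 2.01 to 12.5). The tRNA synthetases had 1 of 17 (5.88%, 1.05 to 27.0) and 2 of 17 (11.8%, 3.29 to 34.3). The intervals of the 3 classes overlapped in each library. Over all genes the share was 8.52% in HSC and 3.40% in MEP. For 7 of the 12 respiratory genes and 5 of the 15 ribosomal genes in HSC another gene was nearer to the peak.

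For the tRNA synthetases, which load amino acids onto mitochondrial tRNAs, the intervals in both wild-type lists included the shares of all genes. The same peak recurred across the lists. Lars2, the leucyl enzyme (chromosome 9, 123366927 to 123462675), had a peak in all 5 lists, GATA1 included, and the 5 positions lay within 11 bp of each other, from 123461999 to 123462010. Its −log10 value was 44.8 in wild-type HSC (rank 2 of 1876), 39.4 in wild-type MEP (53 of 898), 46.4 in heterozygous HSC (41 of 338, 4.88-fold enrichment) and 9.06 in heterozygous MEP (35 of 64, 3.33-fold). The GATA1 interval there was 242 bp wide and ranked 258 of 477 by width. All 5 positions lay inside the gene, 665 to 676 bp from its higher-coordinate end, and the wild-type HSC summit was 95076 bp after its start.

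Lars2 was the single member in heterozygous MEP and in the GATA1 list. Without regions found in 4 or 5 lists, which take out this site, those 2 lists had 0 members each, wild-type HSC had 27 (beside 8.50% of all genes) and wild-type MEP 7 (beside 3.39%). The site was thus shared by antibodies against 2 different proteins, in sorted cells and in a cell line. The cause of its recurrence was not tested.

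Mars2, the methionyl enzyme, was in heterozygous HSC and in no other list, with an interval of 222 bp whose summit lay 103 bp after the start (chromosome 1, 55237280; −log10 q 7.23, rank 182 of 338, 6.77-fold). Fars2 in HSC (2.77) and Nars2 in MEP (3.20) had a peak inside the gene, but 83221 and 8569 bp from the nearer end, and were not counted.

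The 2 wild-type libraries had 3 members in common, Lars2, Ndufs7 and Mrps18b (1.69%, 0.578 to 4.86, beside 1.52% of all genes). Another 25 members had a peak in HSC and not in MEP (14.1%, beside 7.00%), and 5 in MEP and not in HSC (2.82%, beside 1.88%). Of the 28 HSC peaks near members, 4 overlapped a MEP peak once each summit was extended by 150 bp on both sides (14.3%), and over the whole list 278 of 1876 did (14.8%). In the other direction 4 of the 11 MEP peaks near members overlapped an HSC peak (36.4%, beside 30.8%). The sharing of these peaks between the cell types was therefore close to that of the lists as a whole.

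Ndufs7 had its summits 69 bp apart, at 80249313 in HSC (4.86, rank 1042) and 80249244 in MEP (3.80, rank 711) on chromosome 10, which is 136 and 205 bp before the RefSeq start. The tRNA gene n-TNgtt7 ended 81 bp from the HSC summit and 12 bp from the MEP summit, and a further tRNA gene, n-TFgaa3, was 277 and 208 bp away. The peak at Mrpl58 and Atp5h also had a tRNA gene, n-TRcct5, at 95 bp. In all, 2 of the 28 HSC peaks near members had a tRNA gene within 1 kb (7.14%), beside 30 of all 1876 (1.60%). In MEP it was 1 of 11 (9.09%), beside 27 of 898 (3.01%).

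Mrps18b had a pair of peaks in each library at matching places. The first lay 109 bp before its start in HSC (chromosome 17, 35916549; 5.57) and 245 bp before it in MEP (35916685; 4.68), 136 bp apart. The second lay 2628 bp before the start in HSC (35919068; 7.99) and 2549 bp in MEP (35918989; 7.35), 79 bp apart. All 4 positions are inside Ppp1r10, a phosphatase regulator gene, whose lower end was 37 and 173 bp from the first pair. The second pair was 204 and 283 bp from another RefSeq start of Ppp1r10.

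The summits within 1 kb of a RefSeq start of a member mostly lay before it. In HSC they made up 17 of the 29 pairs of a member and a peak. In HSC 17 members of the 152 in the RefSeq promoter table had a summit within 1 kb of a RefSeq start (11.2%, beside 6.68% of the 17492 protein-coding genes in the table), and in MEP 3 of 152 did (1.97%, beside 2.30%). Of the 17 HSC summits, 13 lay before the start and 4 after it (76.5% before), and 14 lay between 250 bases before and 50 after (82.4%). The median distance was 93 bp. Over all protein-coding genes 59.9% of such summits lay before the start, 61.4% lay in that window and the median distance was 111 bp. The 3 MEP summits, at Mrpl34, Ndufs7 and Mrps18b, lay 78 to 245 bp before the start.

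**Figure D3:**
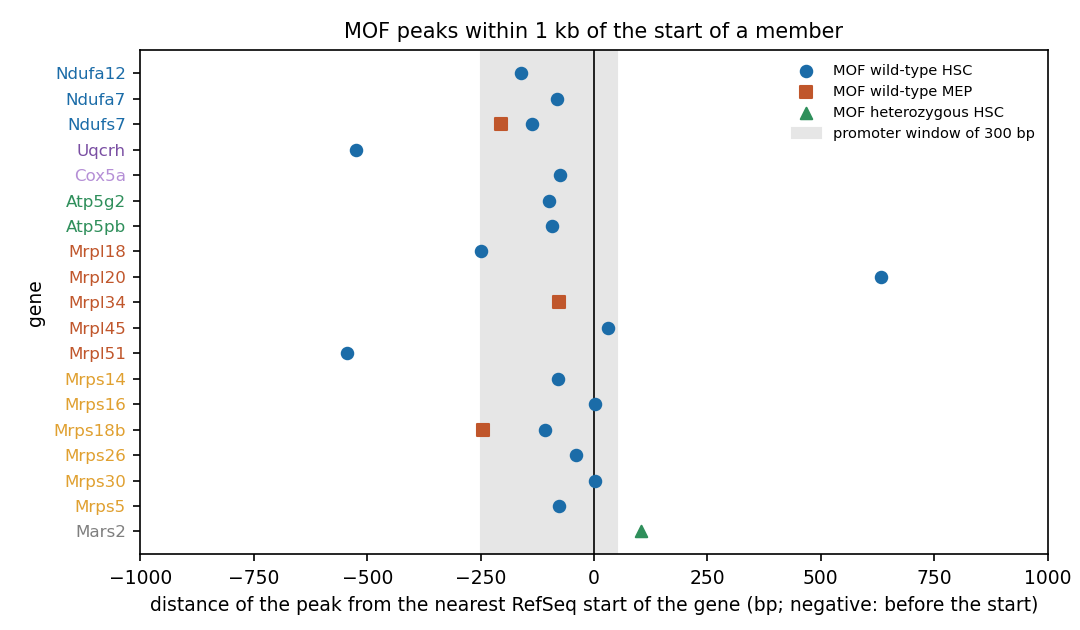
Distance in bp of each MOF summit from the nearest RefSeq start of the member (negative values lie before the start), for the members with a summit within 1 kb; symbols give the list, and the grey band marks the promoter window from 250 bases before to 50 after the start. Circles for wild-type HSC gather in the band, with Uqcrh, Mrpl51 and Mrpl20 outside it.

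Several of these summits also lay beside another gene. Of the 19 HSC summits that lay within 1 kb of either end of a member, 8 also lay within 1 kb of an end of another protein-coding gene (42.1%, beside 33.5% of such pairs over all genes). These members, with the other gene, were Mrps16 with Cfap70, Ndufa7 with Rps28, Mrps18b with Ppp1r10, Atp5a1 with Haus1, Mrps5 with Zfp661, Atp5pb with Wdr77, Uqcrh with Lrrc41 and Mrpl51 with Ncapd2. In MEP it was 4 of 7, beside 40.6% over all genes. At such places a peak cannot be assigned to 1 of the 2 genes from its position.

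In the promoter windows of 300 bases the arrangement could be counted by strand. A start of another gene on the opposite strand lay within 1 kb upstream for 9 of the 19 windows of members with a nearby HSC summit (47.4%). It did so for 46 of 144 windows of members without a wild-type summit (31.9%), for 353 of 1367 windows of all genes with a nearby HSC summit (25.8%) and for 2609 of all 21263 windows (12.3%). The share was higher in both sets of member windows, with and without a peak, than over all windows. The 19 windows belong to 17 genes.

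For NRF1, ETS and YY1, factors known to act on nuclear genes of mitochondria, both sets of member windows had a higher share of matches than all windows. Windows of all genes with a nearby HSC summit also stood above all windows, with 6.07% for NRF1, 26.8% for ETS and 11.3% for YY1. NRF1 matches were found in 2 of the 19 windows with a nearby HSC summit (10.5%), in 19 of the 144 member windows without a summit (13.2%) and in 3.52% of all windows. For ETS the shares were 31.6%, 27.8% and 11.6%, and for YY1 26.3%, 17.4% and 5.25%. SP/KLF matches were in 63.2%, 46.5% and 46.2%, and in 72.0% of windows with an HSC summit over all genes. E-box matches were in 4 of 19 (21.1%), 7.64% and 7.84%, and in 13.3% of windows with an HSC summit over all genes. NF-Y matches were in 36.8%, 41.7% and 38.2% (35.3% with a summit over all genes), and GATA matches in 15.8%, 11.8% and 9.65% (4.75%). With 19 windows, 1 window is 5.26 points of these percentages. The median GC content of the 3 sets was 59%, 58% and 56.3%, and the median number of CG pairs in the 300 bases was 24, 19 and 13. Windows with an HSC summit over all genes had medians of 64% and 25.

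**Figure D4:**
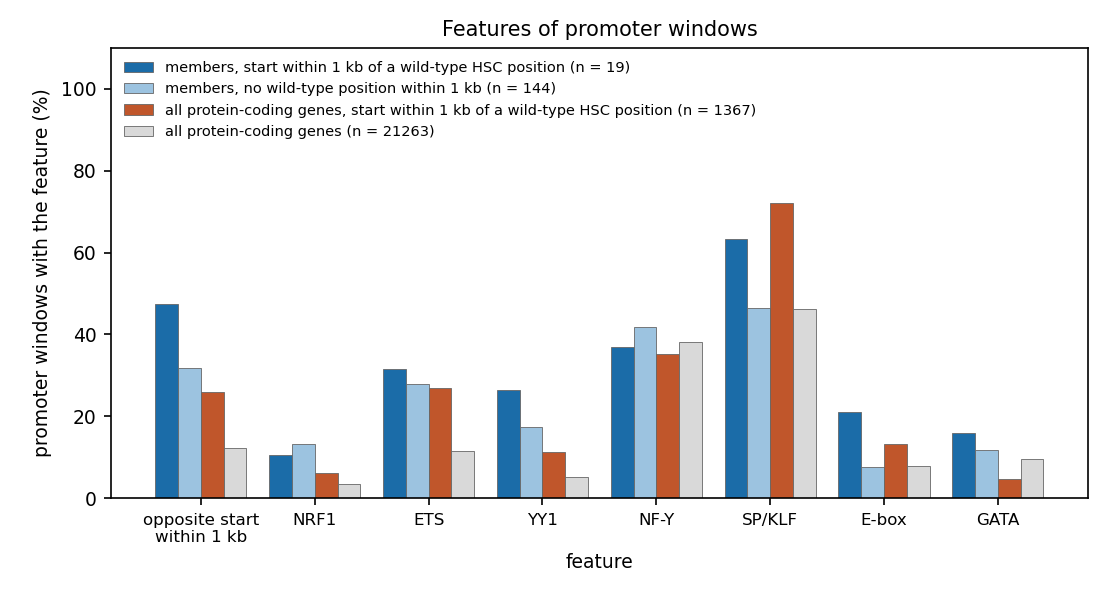
Percent of 300-base RefSeq promoter windows with a start of another gene on the opposite strand within 1 kb upstream, or with each motif on either strand, for 4 sets of windows whose number is given in the key. The dark blue and light blue bars (members with and without a summit) both stand above the grey bars of all genes for the opposite start, NRF1, ETS and YY1.

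The median scores of these peaks lay slightly below the medians of their lists. In HSC 12 of the 28 peaks near members scored above the median of the list, with a median score of 4.72 (range 1.37 to 44.8) beside 5.27 for all peaks. In MEP 5 of 11 did, with a median of 5.09 beside 5.61. Apart from Lars2 and the distant summit counted for Sdhb, no HSC score near a member exceeded that of Mrpl20. The members just inside the 5 kb limit in HSC were Sdha (4889 bp), Mrps7 (4784 bp) and Mrpl42 (4631 bp), and those just outside were Mrps23 (6192 bp), Mrps17 (6328 bp) and Mrpl24 (7039 bp).

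Further genes linked to mitochondria or to their regulation were also counted, in 7 lists with 140 genes. These include the 5 respiratory genes missed by the pattern (0 of 5 in every list). In wild-type HSC 28 of them had a peak (20%, 14.2 to 27.4), beside 8.52% of all genes. In wild-type MEP 16 did (11.4%, 7.16 to 17.8), beside 3.40%. For some of them another gene was nearer, as for Tomm34 in HSC (2945 bp, with Stk4 at 10 bp) and Surf1 (2553 bp, with Rpl7a at 140 bp). These lists were not recounted with nearest genes only, so both shares include peaks that lay nearer to another gene. Assembly factors of the respiratory complexes had 7 of 45 in HSC (15.6%) and 5 of 45 in MEP (11.1%). Cox18, Cox20 and Ndufaf3 were in both (6.67%, 2.29 to 17.9), beside 1.52% of all genes. Cox20, a chaperone for complex IV assembly, had scores of 10.5 and 11.3 with summits 195 and 286 bp before its start. Translation factors and further mitoribosome proteins had 4 of 22 (18.2%) and 3 of 22 (13.6%), with Mtrf1l and Mtif2 in both (9.09%, 2.53 to 27.8). Mtrf1l, a release factor, had scores of 11.3 and 8.42 with summits 236 and 95 bp before its start, whereas the Mtif2 summits were nearer to Clhc1 and Rps27a.

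Of 15 genes of mitochondrial DNA maintenance and transcription, HSC had 4 (26.7%) and MEP a different 3 (20%). The interval for 0 of 15 in both (upper limit 20.4%) included the 1.52% of all genes. For these and the groups below, the shares of all genes were 8.52% in HSC and 3.40% in MEP. The HSC genes were Mgme1 (11.8, 206 bp before its start and 204 bp from Snx5), the polymerase subunit gene Polg2 (7.34), Mterf1a (6.54) and the single-strand binding protein gene Ssbp1 (6.25). The MEP genes were the polymerase gene Polg (9.70, 116 bp before its start), Tfb2m (7.52, nearer to Cnst) and Tfam (3.06), whose product packages mitochondrial DNA and whose summit lay 525 bp from the nearer gene end and 12051 bp from its start. Import genes were 7 of 26 (26.9%) and 3 of 26 (11.5%), with Timm13 and Timm29 in both (7.69%, 2.14 to 24.1). Yipf2, however, was nearer to both Timm29 summits. Genes of the tricarboxylic acid cycle were 2 of 17, Ogdh (6.36) and Sucla2 (3.23), in HSC and 1 of 17 in MEP. Regulators of nuclear mitochondrial genes were 4 of 10 in HSC (Gabpb2 8.37, Yy1 5.92, Pprc1 3.18 and Esrra 2.47) and 1 of 10, Pprc1 (5.48), in MEP. The Pprc1 summits were not the same site, since that in HSC lay 2980 bp from the gene and 42 bp from Nolc1, and that in MEP 230 bp after its start. None of the 140 had a peak in a heterozygous list, where all genes had shares of only 0.567% in HSC and 0.0366% in MEP. Timm29 and Nrf1 were each counted for a GATA1 interval, beside 0.603% of all genes. The former lay 3453 bp from Timm29 and 198 bp from Carm1, and the latter 1247 bp from the nearer end of Nrf1 and 75890 bp from its start.

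Between genotypes, no member gene with a wild-type HSC peak other than Lars2 had a peak in heterozygous HSC, and none other than Lars2 had one in both MEP lists. Over all protein-coding genes the heterozygous lists reached 124 genes in HSC and 8 in MEP, and the wild-type lists 1865 and 745. Most genes with a wild-type peak therefore lacked a heterozygous one. The genes with a peak in both genotypes were not counted over all genes, so the overlap of members has no background here. Genotype, the layout of the lists and unknown depth cannot be told apart here.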

How the data were processed

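Peak lists of 5 of the 12 samples were used. The remaining 6 input libraries and 1 H4K16ac library were left out. Bowtie2 2.3.0.1, deepTools, MACS2 and the build mm10 are named, without settings, in the submitters' processing notes. The wild-type MOF lists deposited by the authors give summits of 1 bp with a −log10 value, taken as −log10 q because its minimum lay just above 1.301, which is the −log10 of 0.05. The heterozygous lists deposited by the authors give, for each interval, its summit, a score in whole numbers, the fold enrichment and −log10 values for p and q. The deposited GATA1 list gives intervals alone, so their midpoints were used and they were ranked by width. These values are the authors' and served to describe and rank peaks within a list. Depth and read filters: not given in the sources used here.

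Wild-type summits were extended by 150 bp on each side for overlaps, for which 1 bp sufficed. Genes and promoters came from RefSeq GRCm38.p6. The gene table has no strand, so strand and starts came from the promoter table, which held 152 of the 177 members. Distances were to the nearer annotated end of a gene. The members with a peak are named, except an item that is not reported here. Those with a peak in both wild-type lists, in a heterozygous or in the GATA1 list, and per group the 3 best-scoring ones nearest to their peak, are described in full, and promoters were printed for the best summit per group inside the 300-base window. Members and lists were chosen with earlier results of these data known. Analysis used Python 3.11.15, pandas 2.3.3, NumPy 2.4.6 and SciPy 1.17.1, and the counting code was tested on simulated positions. The alternatives were other windows and extensions, nearest genes only, higher scores, and leaving out regions found in 4 or 5 lists or in the GATA1 list. The planned cell type markers were not applicable to peak lists.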

Additional observations from a re-analysis of the deposited data

How the results depend on the processing

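Of 56 alternative values, 37 stayed within 1.5 times the reported count and 19 did not. With a window of 20 kb, 13 members had a peak in wild-type MEP (7.34%, beside 6.09% of all genes) and 6 in both wild-type lists (3.39%, beside 3.11%). With nearest genes only, wild-type HSC had 16 members (beside 6.07% of all genes) and wild-type MEP 5 (2.31%). Above the median score of each list the counts were 11 in wild-type HSC (beside 4.35% of all genes) and 5 in wild-type MEP (1.54%). They were 1 in heterozygous HSC (0.119%), 0 in heterozygous MEP (0.0228%) and 0 for GATA1 (0.375%). Without regions in 4 or 5 lists, 1 member was left in heterozygous HSC (beside 0.553% of all genes), 0 in heterozygous MEP (0.0274%) and 0 for GATA1 (0.594%). Without MOF peaks that overlap a GATA1 interval, 1 was left in heterozygous HSC (beside 0.535% of all genes) and 0 in heterozygous MEP (0.00914%). An alternative chosen after seeing the data was a position within 1 kb of a RefSeq start. Its shares are over all 177 members and all 21887 genes, so those without a promoter entry were scored as having no peak. Its counts were 17 in wild-type HSC (9.6%, beside 5.34% of all genes) and 3 in wild-type MEP (1.69%, beside 1.84%). They were 1 in heterozygous HSC (beside 0.274%), 0 in heterozygous MEP (0.00457%) and 0 for GATA1 (0.0731%). The stricter settings hold fewer peaks or genes by construction. The overlap of HSC peaks near members with MEP peaks was 3 with summits extended by 50 bp and 4 with 500 bp or with the stricter overlap. No paired analysis was possible because each list comes from 1 library. Depth is unknown, so a gene without a peak may have been below detection.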

Other observations

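The mitochondrial genome, which encodes the respiratory subunits that the nuclear members complement, was covered unevenly by the lists. The heterozygous HSC list held 10 intervals there, the wild-type MEP list held 1 and the other 3 lists held 0. The heterozygous HSC intervals had fold enrichments of 1.72 to 2.75, beside a median of 4.26 over that list, and their summits lay in both ribosomal RNA genes, COX1, COX2, COX3, ND4, ND5 and a tRNA gene. The strongest of them had a −log10 q of 29.5 (rank 83 of 338, 2.75-fold). The position in wild-type MEP lay in ND4, with a −log10 value of 65.6 (rank 15 of 898). Which lists had mitochondrial reads filtered is not given in the sources used here.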
